A study of Mus musculus with 2 samples.

Results

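The 45 genes of DNA replication and mitosis described here were read by name from bead-resolved maps of 2 mouse ovary sections, an old and a young one. A gene counted as measured with at least 20 counts in 1 section, and all 45 of the 45 listed genes reached this, among 12586 such genes of 22204 gene names. In the old section 41 of them reached 20 counts, and in the young section all 45 did. The old section came from a C57BL6/J female of about 14 months (replicate 1) and the young section from a C57BL6/J female of 2 months (replicate 3), neither with a stated treatment or engineered allele. Slide-seq, the assay, lays a tissue section on an array of barcoded beads, so a bead or a square of beads holds RNA of several cells. The old section held 2348768 counts on 10267 beads (median 125 counts a bead) and the young section 5158314 counts on 21403 beads (median 153), with 0 bead barcodes in common. The protocol describes 4 sections from 2 females for each age, chosen for planes with several oocytes, and the sources used here give no stage of the oestrous cycle. Because each age is 1 section of 1 animal, no test between ages was possible, and age, animal, plane and library cannot be told apart. Ratios and levels therefore carry 95% intervals for counting error only. Fewer dividing cells and less RNA for each dividing cell cannot be told apart in these data.

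In a growing follicle, granulosa cells multiply around the oocyte. Each of their divisions runs through G1, when D cyclins and Cdk4 release the transcription factor E2F, through S phase, when the Mcm2 to Mcm7 helicase opens DNA that polymerases copy around the Pcna clamp, and through mitosis, driven by cyclin B with Cdk1 and the kinesins, checkpoint kinases and centromere proteins of the spindle. The oocyte does not divide. It stays arrested in meiotic prophase while it stores RNA, including RNA for cyclin B and spindle checkpoint proteins, for the meiotic divisions and the first cleavages. Around ovulation the granulosa cells leave the cycle, and they then become luteal cells. The members were taken in 4 groups, which are 15 replication genes, 5 G1 genes (Ccnd1, Ccnd2, Ccne1, Ccne2, Cdk4), 23 mitotic genes and 2 broad genes, Stmn1 (a microtubule destabiliser) and Hmgb2 (a chromatin protein), which are also used outside division.

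Replication and mitotic members differed in the motifs at their starts. RefSeq promoter windows (build GRCm38.p6, 250 bases before to 50 bases after the start) were at hand for 35 members. Motifs were searched on both strands, and forms of a motif were allowed to overlap. An E2F motif (TTTCCCGC, TTTGGCGC, TTTCGCGC or TTTGCCGC) lay in 7 of 13 replication windows and 1 of 19 mitotic windows, that of Cdk1, against 2.61% of all 27025 genes with a window. The CHR motif of genes expressed in G2 and mitosis (TTTGAA or TTCGAA) lay in 2 of 13 replication windows and 14 of 19 mitotic windows, against 21.7% of all genes. A CCAAT box (CCAAT) lay in 9 of 13 replication and 16 of 19 mitotic windows, against 41.1% of all. A match describes letters only and is not a site shown to be used. Windows are printed for 5 members whose levels set the results apart, with the matches of these 3 motifs in capitals. Mcm5 (chr8:75109259-75109558, plus strand) has 2 overlapping E2F matches, as an example of a helicase gene. Mcm2 (chr6:88898731-88899030, minus strand), the member with the lowest old/young ratio, has a CHR and a CCAAT match. Rrm2 (chr12:24708004-24708303, plus strand), the member with the highest ratio, has a CCAAT match. Top2a (chr11:99024140-99024439, minus strand), lower in oocyte-rich than in granulosa-rich tissue, has 4 CHR and 6 CCAAT matches, and Bub1b (chr2:118597961-118598260, plus strand), higher there, has 2 CHR matches and 1 CCAAT match.
Mcm5: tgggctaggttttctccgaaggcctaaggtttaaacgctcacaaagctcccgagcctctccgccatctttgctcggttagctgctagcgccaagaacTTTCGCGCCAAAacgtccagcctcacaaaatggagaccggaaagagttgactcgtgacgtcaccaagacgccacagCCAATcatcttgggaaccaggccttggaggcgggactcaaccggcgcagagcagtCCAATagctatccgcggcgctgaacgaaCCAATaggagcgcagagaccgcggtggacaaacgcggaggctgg
Mcm2: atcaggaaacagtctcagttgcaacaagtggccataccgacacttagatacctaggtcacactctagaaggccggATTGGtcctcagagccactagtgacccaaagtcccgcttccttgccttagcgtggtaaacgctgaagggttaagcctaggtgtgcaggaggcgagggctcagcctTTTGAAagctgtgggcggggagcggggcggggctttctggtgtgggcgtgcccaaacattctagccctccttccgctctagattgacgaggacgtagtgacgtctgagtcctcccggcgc
Rrm2: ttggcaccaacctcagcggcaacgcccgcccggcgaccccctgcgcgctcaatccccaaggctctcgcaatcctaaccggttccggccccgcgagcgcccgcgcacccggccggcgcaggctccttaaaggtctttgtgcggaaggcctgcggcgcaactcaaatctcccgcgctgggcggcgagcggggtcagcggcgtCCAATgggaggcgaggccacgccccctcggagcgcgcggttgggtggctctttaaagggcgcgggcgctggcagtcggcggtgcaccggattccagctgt
Top2a: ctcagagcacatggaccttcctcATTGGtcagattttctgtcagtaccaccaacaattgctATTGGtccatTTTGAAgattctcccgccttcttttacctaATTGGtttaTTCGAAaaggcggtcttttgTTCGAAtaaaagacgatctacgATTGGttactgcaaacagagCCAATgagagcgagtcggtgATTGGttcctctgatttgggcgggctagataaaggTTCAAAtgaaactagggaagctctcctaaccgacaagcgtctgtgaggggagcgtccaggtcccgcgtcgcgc
Bub1b: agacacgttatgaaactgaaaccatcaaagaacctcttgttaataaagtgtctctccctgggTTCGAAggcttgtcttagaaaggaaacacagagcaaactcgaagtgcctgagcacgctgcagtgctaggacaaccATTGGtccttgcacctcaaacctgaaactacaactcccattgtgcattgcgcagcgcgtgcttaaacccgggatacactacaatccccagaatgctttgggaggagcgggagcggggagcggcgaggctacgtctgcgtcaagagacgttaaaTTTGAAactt

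Most members were lower in the old section. Levels are in CPM, the counts of a gene scaled to a fixed total of the section, or of the bins or beads named. Summed mitotic members had a level of 1075 CPM in the old section, against 1862 CPM in the young section, an old/young ratio of 0.577 (95% interval 0.552 to 0.603). Summed replication members stood at 603 CPM and 1003 CPM (old and young), a ratio of 0.601 (0.567 to 0.638). The G1 genes together were at 809 CPM in the old section, against 705 CPM in the young section (ratio 1.15, 1.08 to 1.21), and the broad genes at 115 CPM and 109 CPM (1.06, 0.913 to 1.23). Each of these sums rested on 1 gene: without Cdk4 the G1 ratio was 0.743 (0.675 to 0.818), and without Hmgb2 the broad ratio was 0.634, that of Stmn1. By size alone, 22 of 45 members were at least 1.5-fold lower in the old section, where 25.4% of all measured genes were, and 1 was at least 1.5-fold higher, where 22.6% of all genes were. The lower members were 14 of 23 mitotic, 6 of 15 replication, 1 of 5 G1 and 1 of 2 broad genes. Among them Cdc6, Cdt1 and Ccne2 reached the limit for a measured gene in the young section only, which favours the lower side. The shares of all genes were taken with the same limit. The median ratio over the members was 0.692, beside 0.988 over all measured genes. The interval left out 1 for each of these 23 members, but for Cdc6, Cdt1 and Ccne2 it does not allow for the limit.

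**Figure D1:**
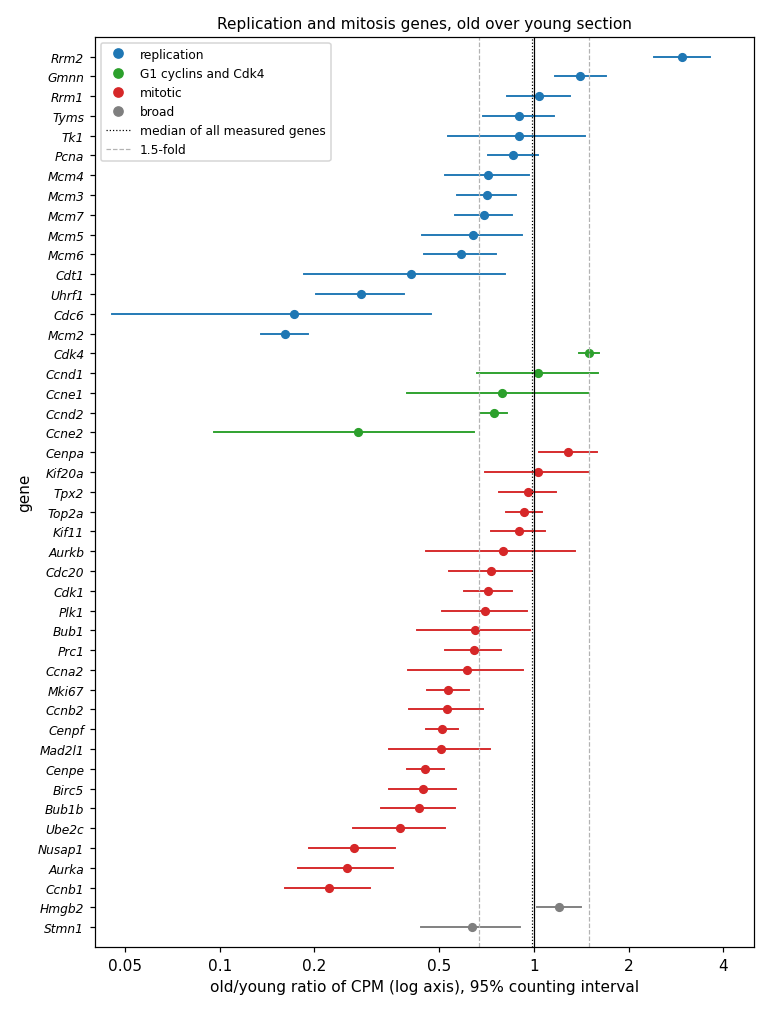
Old/young ratio of CPM for each of the 45 members (points, log axis) with its 95% counting interval (lines), by group, with solid, dotted and dashed lines at 1, at the median of all measured genes and at 1.5-fold either way. Rrm2 is alone beyond 1.5-fold on the higher side at 2.96, and Mcm2 and Cdc6 lie lowest at 0.161 and 0.172.

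Among mitotic members the distance from the young section varied widely. Ccnb1, cyclin B1, had 47 counts (20.0 CPM) in the old section, against 465 counts (90.1 CPM) in the young section, a ratio of 0.222 (0.161 to 0.30). Aurka, the kinase of the spindle poles, had 38 counts (16.2 CPM) and 328 counts (63.6 CPM), a ratio of 0.254 (0.177 to 0.357), and Nusap1, which bundles spindle microtubules, had 47 and 387 counts (ratio 0.267, 0.193 to 0.362). These 3 lay below the other mitotic members. Ube2c (0.375), which passes ubiquitin for the anaphase-promoting complex, the checkpoint kinase Bub1b (0.430), the survivin gene Birc5 (0.445), the kinetochore motor Cenpe (0.451), the checkpoint protein Mad2l1 (0.506), the centromere protein Cenpf (0.509), Ccnb2 (0.528), the proliferation marker Mki67 (0.533), cyclin A2, Ccna2 (0.613), the midzone protein Prc1 (0.643) and the checkpoint kinase Bub1 (0.651) followed. Mki67 had 92.8 CPM in the old section, against 174 CPM in the young. The remaining 9 mitotic members were between 0.699 and 1.29, and Top2a, the topoisomerase that untangles chromosomes, was among them at 134 CPM in the old section, against 144 CPM in the young section (0.931, 0.813 to 1.06). The others of these 9 were Cdk1 (0.715), the anaphase activator Cdc20 (0.732), the mitotic kinases Plk1 (0.699) and Aurkb (0.799), the spindle motor Kif11 (0.894), the spindle factor Tpx2 (0.956), the cytokinesis kinesin Kif20a (1.03) and the centromeric histone Cenpa (1.29, 1.04 to 1.59).

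The replication sum rested largely on Mcm2. Mcm2, a subunit of the replicative helicase, had 147 counts (62.6 CPM) in the old section, against 2006 counts (389 CPM) in the young section, a ratio of 0.161 (0.135 to 0.190). It made up 10.4% of all replication counts in the old section, against 38.8% in the young section. Mcm3 to Mcm7, which form the same ring with Mcm2, were much closer between the sections, at 173 CPM in the old section, against 258 CPM in the young section together (0.672, 0.600 to 0.752) and between 0.585 (Mcm6) and 0.716 (Mcm4) singly. Without Mcm2 the replication sum was 541 CPM in the old section, against 614 CPM in the young section (0.880, 0.824 to 0.940). The ratio of replication to mitotic counts was accordingly 0.561 in the old section, against 0.539 in the young section with Mcm2 counted (old/young odds ratio 1.04, 0.967 to 1.12), and 0.503 and 0.330 without it (1.52, 1.41 to 1.65). Whether replication and mitotic genes differed alike between the sections thus depended on this gene. The sum without Mcm2 still held Rrm2, which was higher in the old section, and no sum without both was made. With aligner, annotation and strand setting not given in the sources used here, whether reads were assigned to Mcm2 alike in both tables was not tested.

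The licensing genes Cdc6 (4 counts in the old section, against 51 in the young section, ratio 0.172, 0.0452 to 0.469) and Cdt1 (10 and 54 counts, 0.407, 0.185 to 0.807), which load the helicase, and Uhrf1 (45 and 350 counts, 0.282, 0.202 to 0.386), which guides maintenance of DNA methylation, were lower in the old section. Gmnn, geminin, the inhibitor of Cdt1, went the other way, at 80.9 CPM in the old section, against 57.6 CPM in the young section (1.40, 1.16 to 1.69). Rrm2, the S phase subunit of ribonucleotide reductase, which makes deoxynucleotides, was at 99.2 CPM in the old section, against 33.5 CPM in the young section (2.96, 2.42 to 3.62). Its partner subunit Rrm1 was at 47.3 and 45.6 CPM (1.04, 0.820 to 1.31), with an interval that held 1. The clamp gene Pcna (0.859, 0.712 to 1.03) and the nucleotide synthesis genes Tyms (0.896) and Tk1 (0.893) had intervals that held 1. In G1, cyclin D2 (Ccnd2, 221 CPM in the old section, against 297 CPM in the young section, 0.744, 0.672 to 0.822) was lower, while Cdk4 (565 and 378 CPM, 1.497, 1.40 to 1.61) lay just under the size that counts as higher. Cyclin E2 (Ccne2) had 6 counts in the old section, against 48 in the young section (0.275, 0.0960 to 0.642), and Ccnd1 (1.03) and Ccne1 (0.788) had wide intervals that held 1. Stmn1 was at 0.634 (0.437 to 0.903) and Hmgb2 at 1.20 (1.02 to 1.42).

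Members were next read by position. Squares of 5 bead spacings with at least 500 counts (bins) numbered 908 in the old section, against 1338 in the young section. A bin was called oocyte-rich with at least 10 counts and 1% of its counts from a list of oocyte genes such as Zp3 and Gdf9. This gave 5 bins in the old section, against 62 in the young section. Of the other bins, the 20% with the highest share of a list of granulosa genes such as Inha and Amh were called granulosa-rich, 181 in the old section, against 255 in the young section. The same rank met different tissue: granulosa-list genes took 0.470% of counts in these bins in the old section, against 2.22% in the young. No member is in either list, and bins are neighbouring pieces of 1 section, not replicates.

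**Figure D2:**
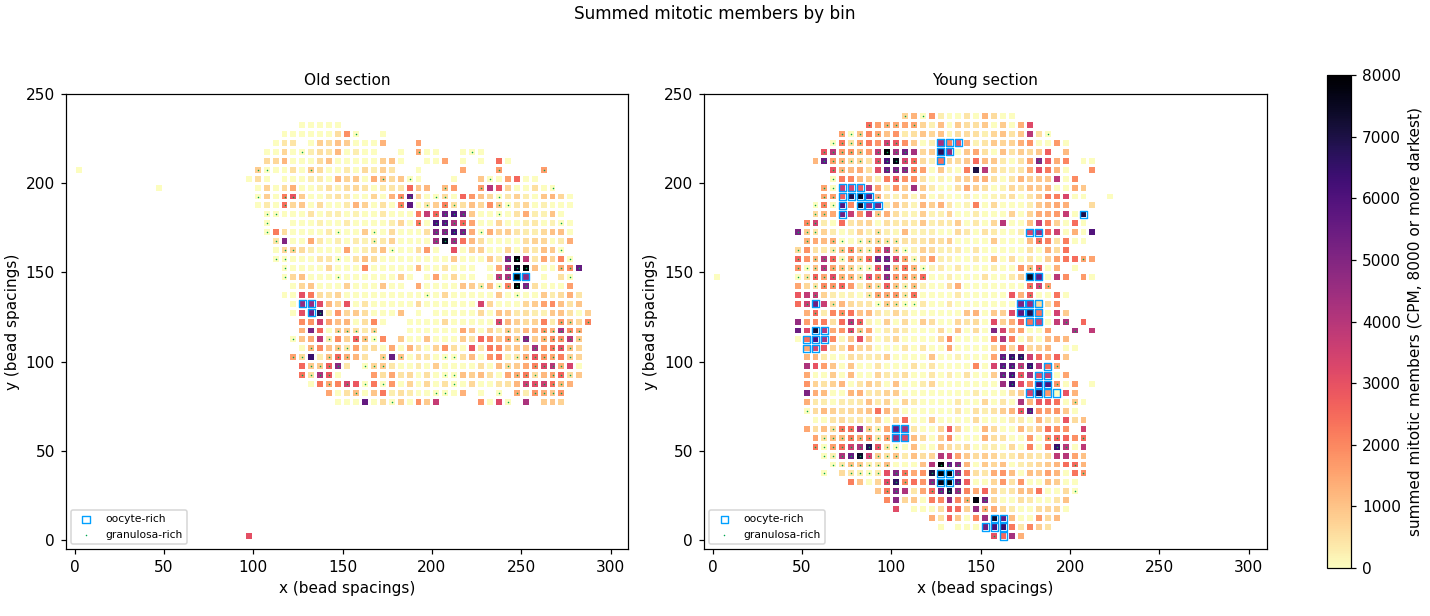
Map of the summed mitotic members by bin in the old section (left) and the young section (right), with x and y in bead spacings, colour for CPM, blue squares for oocyte-rich bins and green dots for granulosa-rich bins. In the old section 2 granulosa-rich patches stand out (4748 and 4392 CPM), and in the young section high bins lie about the 62 oocyte-rich bins and in granulosa-rich tissue.

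Mitotic members were higher in granulosa-rich bins of both sections. In the old section they summed to 2165 CPM in granulosa-rich bins and 628 CPM in the other bins outside oocyte-rich ones, 3.45-fold (3.18 to 3.74), and in the young section to 2688 CPM and 925 CPM, 2.91-fold (2.77 to 3.05). All 20 mitotic members measured in the old section, and all 23 in the young section, were at least 1.5-fold higher there. Over all members this held for 29 of 35 in the old section, where 11% of genes were, and 37 of 41 in the young section, where 11.2% were. Replication members had smaller ratios, with sums of 860 CPM and 497 CPM in granulosa-rich and other bins of the old section (1.73-fold, 1.55 to 1.93) and of 1360 CPM and 688 CPM in the young section (1.98-fold, 1.86 to 2.11). Of the mitotic members, Prc1 was 5.38-fold higher in the old section, against 4.24-fold in the young section. Cdc20 stood at 4.90 and 2.86, Mki67 at 4.36 and 3.68 and Top2a at 3.81 and 3.29. The median over the measured mitotic members was 3.90 in the old section, against 2.86 in the young section. Ccnd2, the cyclin D of granulosa cells, was 1.77-fold higher in the old section, against 2.79-fold higher in the young section. Ccnd1 had 5 and 27 counts in granulosa-rich and other bins of the old section and 11 and 52 in the young section, ratios of 0.504 (0.152 to 1.33) and 0.527 (0.248 to 1.02) whose intervals hold 1. Moran's I, which is 0 without spatial pattern and nears 1 when neighbouring bins are alike, was 0.247 in the old section, against 0.282 in the young section for the mitotic sum and 0.0775 and 0.110 for the replication sum, after each bin was thinned to 500 counts, which left 397 mitotic and 246 replication counts in the old section, against 879 and 557 in the young section. These values moved with the setting: at 300 counts a bin replication was at 0.0139 in the old section, against 0.0609 in the young, and in bins of 3 spacings the old mitotic sum was at 0.374.

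Granulosa-rich tissue was uneven in mitotic genes. Patches, drawn after seeing the data, of at least 5 adjoining bins numbered 7 in the old section, against 5 in the young section. In the old section, the patches with the highest granulosa-list shares, 1.11% over 12 bins and 0.748% over 21 bins, also had the highest mitotic sums, 4748 and 4392 CPM, and the other 5 ranged from 0 to 2093 CPM. In the young section, the 2 largest patches, of 143 and 52 bins, held 2.38% and 3.21% granulosa-list counts and had mitotic sums of 2303 and 2310 CPM. Patches of 12 and 11 bins with 1.08% and 0.952% had sums of 5459 and 5590 CPM, and a patch of 6 bins with 0.906% had 2139 CPM. The same patches of 12 and 11 bins had the highest Mki67 levels, 746 and 944 CPM, beside 197 to 315 CPM in the other 3. Taking only young bins with at least 2% granulosa-list counts, the mitotic sum was 1.44-fold (1.35 to 1.54) that of the remaining bins and the replication sum 0.788-fold (0.708 to 0.876). The higher replication level of the top 20% of bins was therefore not seen in the bins with most granulosa RNA, and the old section had 0 such bins.

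Some members were higher in oocyte-rich than in granulosa-rich tissue. In the young section, oocyte-rich bins exceeded granulosa-rich bins at least 1.5-fold for 20 of 42 measured members, where 23.4% of all genes did, and were below them by that size for 6, where 31.1% did. The last count was 3 in bins of 8 spacings, 2 with the top 10% of bins as granulosa-rich and 1 with bins of at least 2% granulosa-list counts. Uhrf1 had 228 counts (418 CPM) in oocyte-rich bins and 50 counts (38.4 CPM) in granulosa-rich bins, 10.9-fold (8.00 to 15.1). Bub1b stood at 378 and 49.9 CPM (7.58-fold, 5.71 to 10.2), Birc5 at 360 and 61.4 CPM (5.86-fold, 4.49 to 7.70) and Ccnb1 at 455 and 83.6 CPM (5.44-fold, 4.33 to 6.88). Cdt1 (5.43-fold), Ccne2 (3.68), Aurka (3.30), Cenpf (3.09), Nusap1 (3.06), Mad2l1 (2.76), Plk1 (2.71), Prc1 (2.38) and Cenpe (2.37) were also on the oocyte side. On the granulosa side were Rrm1 (23.8 CPM in oocyte-rich and 74.4 CPM in granulosa-rich bins, 0.320, 0.165 to 0.574), Stmn1 (0.446), Cenpa (0.603), Cdk4 (0.648), Top2a (180 and 275 CPM, 0.653, 0.517 to 0.818) and Rrm2 (0.666, 0.395 to 1.08), the last at 1.03 (0.557 to 1.87) when only the top 10% of bins counted as granulosa-rich. Ccnd2 (0.668) and Mki67 (0.765) were just outside that size. Members of 1 complex or family did not sit together. Of the helicase genes Mcm4 (1.97, 1.28 to 3.02) lay on the oocyte side and Mcm7 (0.791, 0.556 to 1.11) did not, and of the B cyclins Ccnb1 did and Ccnb2 (0.763, 0.533 to 1.07) did not.

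**Figure D3:**
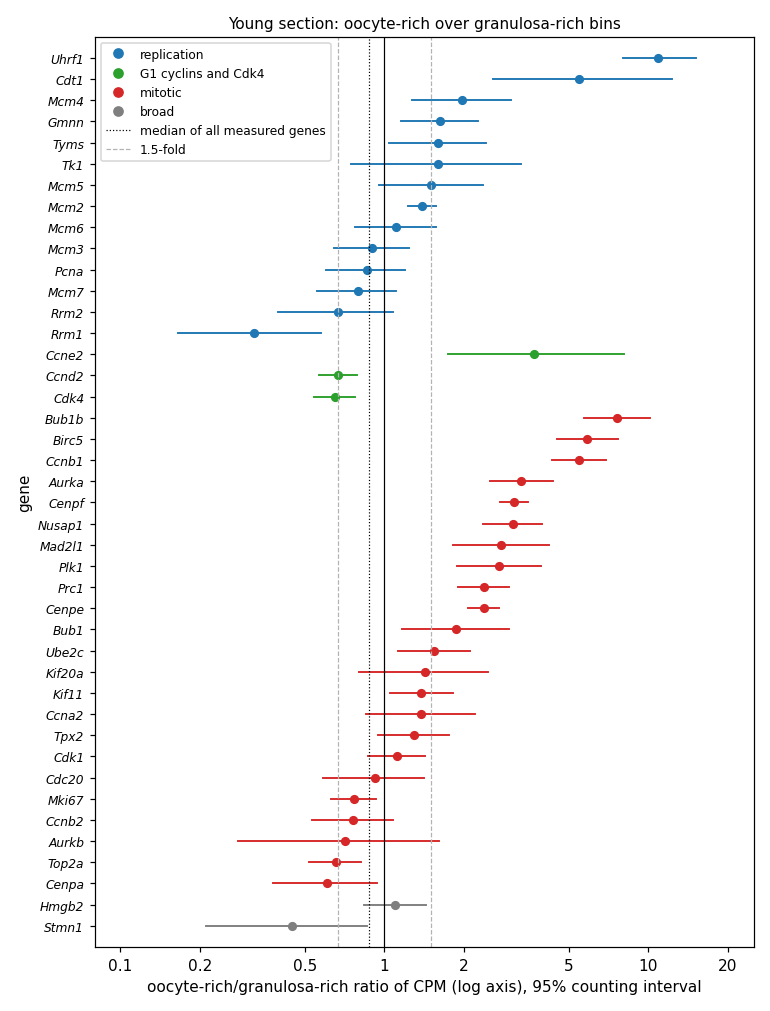
Ratio of CPM in oocyte-rich over granulosa-rich bins of the young section (points, log axis) with 95% counting intervals (lines) for the 42 measured members, by group, with lines as in the plot of old/young ratios. Uhrf1 at 10.9 and Bub1b at 7.58 lie highest, and Rrm1 at 0.320 lies lowest.

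A list of 11 members known from oocyte meiosis or maternal RNA (cyclin B genes, Cdk1, checkpoint and spindle genes and Uhrf1) had a median oocyte/granulosa ratio of 2.71, with 6 of 11 higher and 0 lower by 1.5-fold, beside 1.38 over the other 31 measured members, of which 14 were higher and 6 lower, and 0.873 over all genes. Known oocyte use did not sort the members fully: Birc5, Cdt1, Cenpf and Nusap1 are not on the list, and Ccnb2 and Cdc20 (0.920), which are, had ratios below 1. Grouping single beads of at least 50 counts by the share of oocyte-list counts used the same counts at a finer grain, and the members plotted were picked after their ratios were known, so the levels are a description only. In the young section Ccnb1 stood at 41.4, 76.9, 347 and 626 CPM in beads with a share of 0, up to 1%, 1 to 3% and 3 to 10%, and Uhrf1 at 21.5, 61.3, 292 and 589 CPM. Top2a stood at 141, 169, 162 and 100 CPM over the same steps, and Ccnd2 at 283, 384, 410 and 144 CPM. Levels of the first pair were higher at each step, and those of the second pair were lowest in the beads with most oocyte RNA. The oocyte-rich bins formed 12 foci in the young section. Ccnb1, Birc5, Aurka and Cenpf were above their granulosa-rich level in 12 of 12 foci, Uhrf1 in 11 and Bub1b in 10, whereas Top2a was above it in 2 and Mki67 in 3. The foci are parts of the same 62 bins that gave the ratios and are not replicates, so these tallies too are a description only. Foci held from 1 to 12 bins. In the focus with fewest counts (1 bin, 4191 counts), 1 count of Aurka (239 CPM) was enough to pass its granulosa-rich level of 72.9 CPM.

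**Figure D4:**
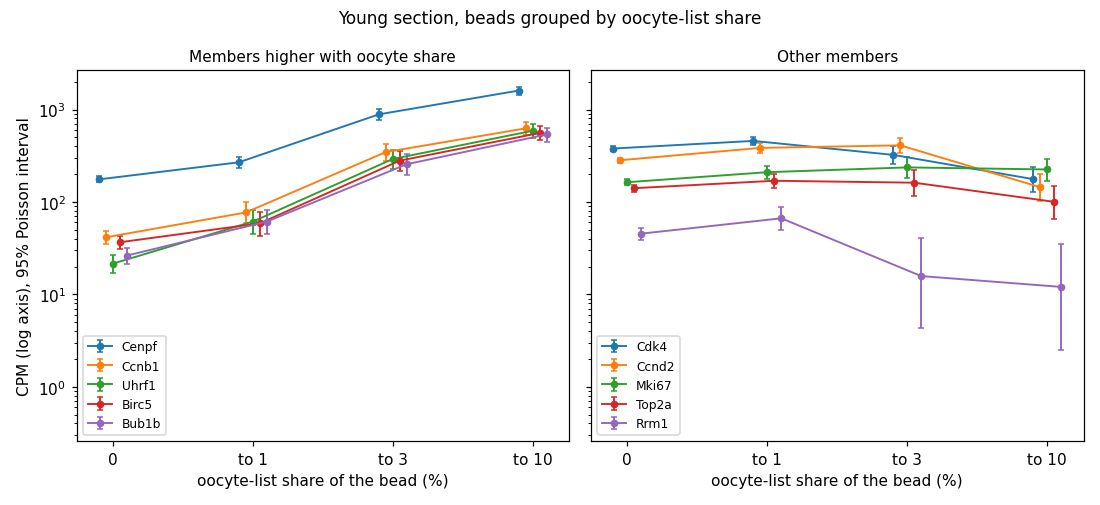
CPM (log axis) with 95% Poisson intervals of 10 members in beads of the young section grouped by their share of oocyte-list counts (x axis, %), the members having been picked after their ratios were known. The 5 members on the left are higher at each step, Uhrf1 reaching 589 CPM, and the 5 on the right are not.

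In the old section the 5 oocyte-rich bins, in 2 foci, held only 24942 counts. Members with an interval above 1 against granulosa-rich bins included Uhrf1 (12 counts in oocyte-rich and 16 in granulosa-rich bins, 18.4-fold, 7.93 to 41.4), Bub1b (11 and 36 counts, 7.48-fold, 3.43 to 15.02), Birc5 (9 and 34 counts, 6.48-fold, 2.73 to 13.8) and Ccnb1 (5 and 27 counts, 4.53-fold, 1.36 to 11.9). Top2a had 1 and 182 counts (0.135, 0.00339 to 0.759). Higher by 1.5-fold or more were 22 of 32 measured members, where 23.2% of genes were, and 5 lower, where 44.4% were, and the interval held 1 for 14 of these 27. Uhrf1, Bub1b, Birc5, Ccnb1 and Top2a lay on the same side of 1 as in the young section, with few counts behind them. Of the 32 members measured in both sections 10 lay on opposite sides of 1, and the old interval held 1 for all 10. Among them were Rrm1 (1.75 in the old section, against 0.320 in the young section), Cenpa (1.72 and 0.603), Stmn1 (1.17 and 0.446), Ccnb2 (2.51 and 0.763) and Mki67 (1.34 and 0.765). Gmnn (0.281 and 1.62) and Tyms (0 and 1.59) were below 1 in the old section only.

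Oocyte-list genes took 313.8 CPM of the old section and 3467 CPM of the young section, and granulosa-list genes 2237 CPM and 7667 CPM. The make-up of the sections thus moved with the member ratios, and how much of the ratios it carried was not tested. The bins that follow are not matched in make-up. Outside oocyte-rich bins, oocyte-list genes were still at 104 CPM in the old section, against 764 CPM in the young section. In granulosa-rich bins they were at 126 CPM in the old section, against 720 CPM in the young section. Outside oocyte-rich bins, Bub1b stood at 24.6 CPM in the old section, against 30.6 CPM in the young section (0.806, 0.580 to 1.11) and Birc5 at 31.7 and 43.3 CPM (0.731, 0.550 to 0.962), nearer to level than over all beads. Ccnb1 stayed lower, at 18.5 and 46.2 CPM (0.400, 0.280 to 0.559), and so did Aurka (0.387), Nusap1 (0.335) and Ube2c (0.447). Of 45 members 14 were at least 1.5-fold lower in these bins, where 22.3% of genes were, and 2 higher (Rrm2 and Gmnn), where 23.2% were. The mitotic sum had a ratio of 0.728 (0.694 to 0.763) and the replication sum 0.675 (0.634 to 0.718), the last becoming 0.994 (0.927 to 1.07) without Mcm2. That last sum includes Rrm2. Mcm3 to Mcm7 together stayed lower in these bins, at 170 CPM in the old section, against 240 CPM in the young section (0.708, 0.629 to 0.796).

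Granulosa-rich bins of the sections differed less in mitotic than in helicase genes. The mitotic sum was 2165 CPM in the old section, against 2688 CPM in the young section (0.805, 0.755 to 0.858). Top2a (298 and 275 CPM, 1.08, 0.900 to 1.30), Tpx2 (1.19), Prc1 (0.988), Cdc20 (0.985), Plk1 (0.961) and Bub1b (1.18) had intervals that held 1. Mki67 (210 and 343 CPM, 0.611, 0.498 to 0.746), Ube2c (0.459), Aurka (0.494) and Nusap1 (0.500) remained lower. Mcm3 to Mcm7 summed to 205 CPM in the old section, against 381 CPM in the young section (0.538, 0.439 to 0.656), Mcm6 being at 0.316 (0.175 to 0.537), and Mcm2 was at 86.8 and 553 CPM (0.157, 0.116 to 0.208). Over the 40 measured members 13 were at least 1.5-fold lower, where 26.5% of genes were, and 2 higher, where 23.2% were, again Rrm2 (3.16-fold) and Gmnn (2.06-fold). These sums turned with how narrowly granulosa-rich was drawn: in the top 10% of bins the old/young ratio was 1.26 (1.15 to 1.37) for the mitotic and 1.20 (1.04 to 1.38) for the replication sum. Without the old bins that were also periovulatory-rich (high in a list of ovulation genes, mainly Adamts1), the ratios were 1.01 and 0.753. Periovulatory-list counts were at 2969 CPM in these bins of the old section and 36.8 CPM in those of the young section, and their part in the ratios was otherwise not tested. In bins ordered into 5 equal steps of granulosa-list share, Mcm2 ranged from 24.4 to 87.1 CPM in the old section and from 166 to 553 CPM in the young section, and the ranges did not overlap.

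Rrm2 was concentrated in 1 kind of tissue of the old section. A list of genes induced around ovulation (periovulatory list), such as Adamts1 and Ptgs2, took 1611 CPM of the old section and 29.9 CPM of the young section. Adamts1, a protease of the ovulating follicle, carried most of the list in the old section. Of the periovulatory-rich bins, split below, it gave 1571 of 1660 list counts in those not granulosa-rich and 1690 of 1782 in the others. The class thus rests mainly on this 1 gene. The 20% of old bins highest in this list held Rrm2 at 250 CPM (191 counts), against 27.2 CPM (41 counts) in the other bins, 9.21-fold (6.55 to 13.2). Aurka was at 39.3 and 4.64 CPM (30 and 7 counts, 8.47-fold, 3.65 to 22.9), Prc1 at 4.23-fold (2.81 to 6.47) and Gmnn at 2.93-fold (2.16 to 3.98). With only the top 10% of bins, Rrm2 was still 4.92-fold higher (3.77 to 6.43), whereas Aurka was at 1.95 (0.893 to 4.03). Higher there by 1.5-fold or more were 18 of the 37 measured members, where 12.6% of genes were, and 6 lower, where 25.8% were; 15 of the 18 were mitotic. In the young section the bins ranked highest by this list held only 0.0246% list counts, and no result on periovulatory tissue is drawn from them.

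Because 85 of these bins were granulosa-rich too, the old bins were split further, after seeing the data. Rrm2 was at 221 CPM in 96 bins that were periovulatory-rich only, 277 CPM in the 85 bins that were both, 32.7 CPM in 96 bins that were granulosa-rich only and 26.2 CPM in the 626 bins that were neither. Top2a ran otherwise, at 114, 209, 463 and 67.9 CPM, and so did Mki67 at 76.3, 129, 360 and 40.1 CPM. Rrm2 was thus high in both kinds of periovulatory-rich bins and low in the bins that were granulosa-rich only, while Top2a and Mki67 were highest in granulosa-rich tissue without that list. Between the bins that were periovulatory-rich only and granulosa-rich only, 1 of 18 measured members was at least 1.5-fold higher, where 24.4% of genes were, namely Rrm2 (6.74-fold, 3.13 to 17.3), and 15 were lower, where 17% were. Gmnn lay on the side of Rrm2 but within that size, at 109 CPM in the first and 74.8 CPM in the second. Aurka, at 32.7 and 18.7 CPM, had 12 and 4 counts, too few to count as measured. Ccnd2 was 253 CPM in the first and 599 CPM in the second (0.423, 0.321 to 0.557). Both periovulatory patches of at least 5 bins, of 67 and 92 bins, had high Rrm2, at 365 and 202 CPM, so the level did not come from a single patch. Rrm1 stood at 43.6 and 98.2 CPM in the same split and did not follow Rrm2.

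**Figure D5:**
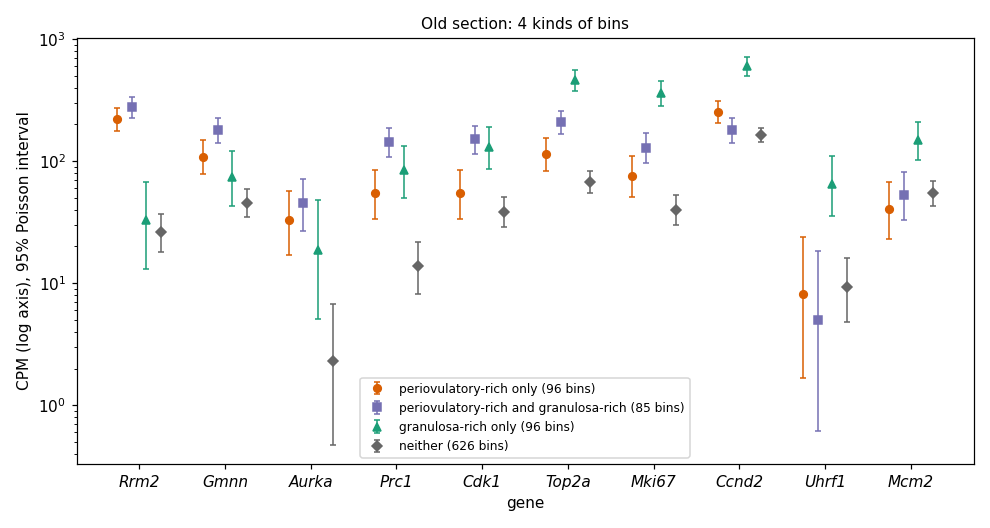
CPM (log axis) with 95% Poisson intervals of 10 members in 4 kinds of bins of the old section, the split and the members having been chosen after seeing the data. Rrm2 is at 221 and 277 CPM in the periovulatory-rich kinds and at 32.7 and 26.2 CPM in the other kinds, while Top2a, Mki67, Ccnd2, Uhrf1 and Mcm2 are highest in bins that are granulosa-rich only.

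Luteal-rich and theca-interstitial-rich tissue was poor in members, as were several other classes. Median member ratios were 0.507 in smooth muscle-rich and 0.563 in endothelium-rich bins of the young section. In the old section they were 0.538 in macrophage-rich, 0.633 in endothelium-rich and 0.819 in smooth muscle-rich bins. Periovulatory-rich bins of the old section (1.35) and surface epithelium-rich bins of the young section (1.48) went the other way. In luteal-rich bins, ranked by genes such as Ptgfr, the mitotic sum was 282 CPM in the old section, against 1225 CPM in its other bins (0.230, 0.190 to 0.275), and 532 and 1647 CPM in the young section (0.323, 0.294 to 0.355). All 22 mitotic members measured in the old section, and all 23 in the young section, were at least 1.5-fold lower there; over all members this held for 36 of 40 in the old section, where 26.1% of genes were, and 38 of 45 in the young section, where 23.2% were. Pcna, which also serves DNA repair, had intervals that held 1, at 63.1 and 70.0 CPM in the old section (0.902, 0.576 to 1.37) and 79.3 and 80.5 CPM in the young section (0.984, 0.748 to 1.28). Ccnd1 was higher in luteal-rich bins of the young section, at 24.9 and 11.2 CPM (2.23-fold, 1.26 to 3.83). In the old section Ccnd1 was at 11.3 and 14.8 CPM (5 and 27 counts, 0.763, 0.230 to 2.01), with an interval that held 1. Theca-interstitial-rich bins were ranked by 1 list of theca and interstitial genes such as Cyp17a1, which does not part the 2 tissues. In them the mitotic sum was 0.374-fold (0.312 to 0.445) in the old section, against 0.173-fold (0.150 to 0.199) in the young section. There 28 of 40 members were at least 1.5-fold lower in the old section, where 20.3% of genes were, and 42 of 45 in the young section, where 23.8% were. The interval held 1 for 11 of the 28 theca-interstitial-rich calls of the old section and 3 of the 42 of the young section, and for 4 of the 36 luteal-rich calls of the old section. In stroma-rich bins of the old section, ranked by genes such as Dcn, Tyms (69.6 and 29.2 CPM, 2.39-fold, 1.45 to 3.85), Mcm3 (87.7 and 40.8 CPM, 2.15-fold, 1.39 to 3.26) and Mcm4 (2.10-fold, 1.09 to 3.88) were higher. At least 1.5-fold higher there were 5 of 39 members, where 13.1% of genes were, of which 4 were replication genes and 0 mitotic, and 11 were lower by that size, where 17% of genes were, Rrm2 among them (0.196, 0.0886 to 0.379). The share of members on the higher side was near that of all genes and is no result on the members, and the interval held 1 for 10 of the 16 calls. In the young section the same 3 genes were at 0.751, 0.958 and 0.993 in stroma-rich bins, with intervals that held 1; whether the sections differ in this was not tested.

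Other genes of the same pathways were mostly lower in the old section too. Of 51 other genes of replication and its control 26 were at least 1.5-fold lower in the old section and 1 was higher, with a median ratio of 0.666, and of 54 measured other mitotic genes 29 were lower and 1 higher (Cdc25c, a phosphatase that activates Cdk1, 1.95-fold, named after its value was seen), with a median of 0.559, beside the 25.4% and 22.6% of all genes. Mcm10, which starts the helicase (11 counts in the old section, against 150 in the young section, 0.161, 0.0787 to 0.297), the polymerase gene Pole (8 and 109 counts, 0.161) and the maintenance methyltransferase Dnmt1 (52.4 and 224 CPM, 0.234, 0.193 to 0.282) had the lowest ratios of the replication list among genes with at least 50 counts in 1 section. Dnmt1 was 13.4-fold (11.1 to 16.1) higher in oocyte-rich than granulosa-rich bins of the young section, as was its partner Uhrf1 at 10.9-fold. The highest were Ccnd3 (2.00-fold, 1.53 to 2.61), Fen1 (1.49) and Cdc7 (1.32). Among mitotic genes, Mybl2 (0.169), Kif4 (0.181) and Knstrn (0.221) were lowest, Ncapd2 (1.44), Kif22 (1.28) and Lmnb1 (1.13) highest, and Smc4 and Tubb5, with the most counts, were at 0.503 and 0.817; Rfc1, which had the most replication counts after Dnmt1, was at 0.625. Of a list of meiotic and oocyte cycle genes, 8 of 9 measured were at least 1.5-fold lower, with a median of 0.193. Fbxo43, Mos, Smc1b, Sycp3, Wee2 and Rec8 reached the limit for a measured gene in the young section only, which favours the lower side. The tally and the median are thus partly set by this limit and are a description only. Btg4, Fbxo5 and Sgo2a reached the limit in both sections. Btg4, which clears maternal RNA, had 52 counts in the old section, against 2444 in the young section (0.0467, 0.0348 to 0.0615), Wee2, the kinase that keeps oocytes arrested, 5 and 207 (0.0530), Fbxo43 1 and 41 (0.0536, 0.00132 to 0.316), Mos 8 and 91 (0.193) and Sycp3 5 and 52 (0.211). Smc1b, a meiotic cohesin, had 0 and 53 counts and was at least 8.04-fold lower in the old section, set against 3 counts there, and the counting interval of its ratio reached up to 0.158. Fbxo5 (0.546), Sgo2a (0.596) and Rec8 (0.732, 0.396 to 1.29) were nearer to the members.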

How the data were processed

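Slide-seq tables of 1 old and 1 young mouse ovary section were used, each with counts of genes by bead and a position for each bead. The deposited values are raw counts of each gene on each bead, made by the authors against mm10, per the submitters' processing notes; not given in the sources used here were the aligner, counter, annotation and strand, or if molecules or reads were counted. Positions have no stated length unit and are given in bead spacings. CPM were computed from these counts with Python 3.11.15, numpy 2.4.6, scipy 1.17.1 and pandas 2.3.3. A gene was measured with at least 20 counts on 1 side and called by size at 1.5-fold. Ratio intervals are exact binomial (Clopper-Pearson) and level intervals exact Poisson, at 95%. Bins of 5 bead spacings needed 500 counts. Bins and beads are not replicates, and with 1 library for each age no test was made. The calculations were tested on simulated counts. Every member with at least 20 counts was named; of the other cycle genes, the 3 highest and 3 lowest ratios among genes with at least 50 counts in 1 section and the 2 with most counts, and the oocyte genes with at least 20. Members, lists, bins and contrasts were chosen with earlier results of these data known. Alternatives changed bin size, class limits, scaling, the fold, minimum bead counts and the parts of the section used.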

Additional observations from a re-analysis of the deposited data

Results flagged for a closer look

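For 4 members a class of bins differed from the other bins by at least 1.5-fold in opposite directions in the sections, with both counting intervals apart from 1. The difference between sections was not tested. In periovulatory-rich bins against other bins, Gmnn was 2.93-fold in the old section, against 0.568-fold in the young section. The old class held 0.451% periovulatory-list counts, against only 0.0246% in the 124 bins of the young class, so the classes are not alike and no direction is read from the young value. In bins ranked highest by surface epithelium genes against other bins, Top2a was at 0.542 in the old section, against 1.53 in the young section, Kif11 at 0.471 and 1.53, and Prc1 at 0.186 and 1.67. These 3 were not alone: all 22 mitotic members measured there were below 1 in the old section, and 22 of 23 were above 1 in the young section. Their median ratio was 0.500 in the old section, against 1.53 in the young section, beside 1.01 over all measured genes in each. The interval held 1 for 9 of the 16 mitotic members at least 1.5-fold lower in the old section. It held 1 for 1 of the 12 at least 1.5-fold higher in the young section. The share of all genes past 1.5-fold in these bins is not given here, so these counts are a description only. The bins ranked by surface epithelium genes held 0.306% list counts in the old section, against 0.0452% in the young section. Granulosa-list counts were 0.178% and 0.835%, and oocyte-list counts 0.0141% and 0.121%. Against the other bins of the same section, granulosa-list counts were 0.776-fold in the old section and 1.04-fold in the young section. Oocyte-list counts were 1.43-fold (0.996 to 2.01) and 1.96-fold (1.83 to 2.10). The part of these differences in list, granulosa-list and oocyte-list counts was not tested.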

How the results depend on the processing

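Of the alternatives tried for values that answer a comparison, 146 left the value within its limits (its counting interval, or 1.5 times for a count) and 55 did not. In 11 the ratio lay on the other side of 1, and 6 of these were outside the limits: the G1 and broad sums without the member with most counts, both sums in granulosa-rich bins of the top 10%, the mitotic sum there without periovulatory-rich bins, and the young replication sum with bins of at least 2% granulosa-list counts. Members at least 1.5-fold higher in the old section numbered 2 with beads of at least 200 counts, or without the low x and low y quadrant of either section. They numbered 3 without the old low x and high y or the young high x and low y quadrant. At a 2-fold limit 12 members were lower. Without the old low x and high y quadrant the old/young ratios were 0.688 (replication), 1.22 (G1), 0.692 (mitotic) and 1.26 (broad). Without the old high x and low y quadrant they were 0.543 (replication) and 0.515 (mitotic), and without the old high x and high y quadrant 1.08 (G1) and 0.544 (mitotic). Leaving out the young high x and low y quadrant gave 0.605 (mitotic), and the young high x and high y quadrant 0.567 (replication) and 0.536 (mitotic). Median-of-ratios scaling gave 0.554, 1.06 and 0.532 for replication, G1 and mitotic sums. Without the member with most counts the ratios were 0.880 (replication), 0.743 (G1) and 0.634 (broad). Bins of 8 spacings gave 3.53 for young oocyte-rich over other mitotic sums, 1.68 and 2.52 for young granulosa-rich replication and mitotic sums, and 3 members lower in oocyte-rich than granulosa-rich bins. With the top 10% of bins, granulosa-rich over other ratios were 2.01 (old, replication), 1.01 (young, replication) and 1.66 (young, mitotic). Oocyte-rich over granulosa-rich ratios were then 2.30 (replication) and 2.55 (mitotic) with 2 members lower, and Rrm2 was at 1.03. The old/young ratios in granulosa-rich bins were 1.20 (replication) and 1.26 (mitotic), both above 1 where the top 20% gave 0.632 and 0.805, and in the periovulatory contrast Rrm2 was at 4.92 and Aurka at 1.95. With bins of at least 2% granulosa-list counts, of which the old section has 0, young ratios were 0.788 (replication, below 1 where the top 20% gave 1.98) and 1.44 (mitotic). Oocyte-rich over granulosa-rich ratios were then 2.86 and 2.80 with 1 member lower, and Rrm2 was at 1.15. An oocyte share of 3% gave 2.11 (oocyte-rich over other, replication) and 2.31 (oocyte-rich over granulosa-rich, mitotic), and one of 0.3% gave 0.767 (old/young outside oocyte-rich bins, mitotic). Alternatives chosen after seeing the data were old granulosa-rich bins that were not periovulatory-rich, with old/young ratios of 0.753 (replication) and 1.01 (mitotic), and leaving out Mcm2, with 0.958 in granulosa-rich bins, 0.994 outside oocyte-rich bins and 1.52 for replication over mitotic counts. Moran's I was 0.0139 (old, replication), 0.0609 (young, replication) and 0.167 (young, mitotic) at 300 counts a bin, and 0.374 (old, mitotic) and 0.189 (young, replication) in bins of 3 spacings. The causes were not tested. No paired analysis was possible because each age has 1 library and the replicate numbers are not shared. Depth limits Cdc6, Ccne2 and Cdt1, with at most 10 counts in the old section, and the 5 old oocyte-rich bins.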
